A study of Mus musculus with 9 samples.

Results

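Havcr1 is the mouse gene for kidney injury molecule KIM-1, also called TIM-1, and it is 1 gene of the 22180 measured here. It was taken by its symbol from the annotation of the array's rows. Havcr1 has 1 row with a single symbol, so no choice between rows was needed. The gene was chosen by its mean signals in the 3 groups, high after bile duct ligation and not lower after norUDCA, so its own levels over the 3 groups are given as a description, with no test.

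The data were 9 whole-transcript arrays of total RNA from mouse kidney, 3 in each of 3 groups. Sham mice were operated on without ligation and taken at 3 weeks. In the CBDL group the common bile duct was tied off for 3 weeks, which dams up bile and exposes the kidney to bile acids. The norUDCA-fed CBDL group received norUDCA (norursodeoxycholic acid, whose side chain is shorter than that of its parent bile acid) in the feed for 5 days, and then had its duct ligated for 3 weeks as well. Whether feeding went on after the operation, and the strain, sex and age of the mice, were not given in the labels, and no sham group fed norUDCA was among the samples. The labels do not say that the arrays of a group came from separate animals, so the p-values speak of the spread among these 9 samples, which may be technical.

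KIM-1 is a membrane protein with an immunoglobulin-like domain and a mucin stalk. In healthy kidney it is scarce, and injured proximal tubule cells place it on their apical surface. There it binds phosphatidylserine on dying cells and lets the tubule cell engulf them, and its outer part is shed into urine, where it serves as an injury marker. T and B lymphocytes also carry the protein, under the name TIM-1.

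Values are log2 signals after robust multi-array averaging (RMA), so a difference of 1 is 2-fold on that scale. The 9 arrays had medians between 5.7 and 5.79 over all rows. On the second principal component of the genes, which held 13% of the variance, the other 7 arrays lay between -12.03 and -3.42, away from sham_159 at 34.54 and from CBDL_165 at 22.91. Several results that rest on these arrays are given with and without them, but not all. In bulk kidney RNA, fewer cells of a type and less RNA per cell cannot be told apart.

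The 4 measured TIM genes, Havcr1, Havcr2, Timd2 and Timd4, all lie on mouse chromosome 11, and their arrays are set side by side below. Their upstream sequences are shown because Havcr1 and Timd2, the measured gene next before it on that chromosome, had opposite differences after ligation. The measured gene next after it, Timd4, differed in the same direction as Havcr1. Each sequence is the 250 bases before the start site farthest upstream in RefSeq (build GRCm38.p6), at chr11:46739973-46740222 on the plus strand, chr11:46707105-46707354 on the minus strand, chr11:46454681-46454930 on the plus strand and chr11:46810549-46810798 on the plus strand. Havcr1 has 3 start sites in that table, Timd2 has 2, and Havcr2 and Timd4 have 1 each. Capitals mark a match to TGANTCA, the AP-1 motif.
Havcr1: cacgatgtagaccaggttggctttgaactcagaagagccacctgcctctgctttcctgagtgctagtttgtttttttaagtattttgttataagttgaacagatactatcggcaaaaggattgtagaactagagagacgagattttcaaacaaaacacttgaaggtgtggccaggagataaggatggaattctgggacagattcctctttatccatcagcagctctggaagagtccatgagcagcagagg
Timd2: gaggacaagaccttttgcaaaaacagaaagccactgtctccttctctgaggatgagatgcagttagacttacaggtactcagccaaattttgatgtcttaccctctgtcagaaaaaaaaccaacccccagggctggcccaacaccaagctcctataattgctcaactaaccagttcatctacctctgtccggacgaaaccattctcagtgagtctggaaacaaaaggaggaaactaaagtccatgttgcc
Havcr2: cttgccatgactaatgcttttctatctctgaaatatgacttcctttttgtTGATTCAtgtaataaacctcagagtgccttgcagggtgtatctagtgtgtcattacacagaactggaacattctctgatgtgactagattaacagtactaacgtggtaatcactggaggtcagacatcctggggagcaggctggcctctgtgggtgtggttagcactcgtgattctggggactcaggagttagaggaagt
Timd4: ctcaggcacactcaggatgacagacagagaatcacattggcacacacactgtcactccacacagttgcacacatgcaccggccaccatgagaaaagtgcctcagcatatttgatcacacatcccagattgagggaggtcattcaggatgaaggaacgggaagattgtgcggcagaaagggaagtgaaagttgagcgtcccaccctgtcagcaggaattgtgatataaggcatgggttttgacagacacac
Both strands were searched for 2 motifs, TGANTCA and the STAT motif TTCNNNGAA. Havcr2 held 1 AP-1 match, which began 200 bases before its start, and none of the 4 windows held the STAT motif. Of 32851 windows of this length in the table, 6.75% held the AP-1 motif and 7.02% the STAT motif. The letters are a description of these windows and say nothing of which factor binds.

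Havcr1 was low in sham kidneys and high in both ligated groups. It read 5.64, 4.23 and 5.83 on sham_158, sham_159 and sham_160. It read 8.77, 8.66 and 9.95 on CBDL_164, CBDL_165 and CBDL_170, and 9.04, 9.36 and 9.40 on norUDCA_CBDL_172, norUDCA_CBDL_175 and norUDCA_CBDL_179. Every ligated array lay above every sham array, and the norUDCA-fed values lay within the range of the CBDL values. The mean was 5.24 ± 0.87 over the sham arrays, 9.12 ± 0.71 over the CBDL arrays and 9.27 ± 0.20 over the norUDCA-fed arrays (SD, n = 3 for each). The order of the groups was therefore norUDCA-fed CBDL, CBDL and sham, and the first 2 did not differ beyond their spread.

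Havcr1 differed by 3.89 (SE 0.43) between CBDL and sham, which is 14.8-fold, and by 4.03 (SE 0.43) between norUDCA-fed CBDL and sham, which is 16.3-fold. Between norUDCA-fed CBDL and CBDL it differed by 0.14 (SE 0.43, 95% interval -0.82 to 1.1). The sign of this small difference turned to -0.03 without CBDL_164 and to -0.09 without CBDL_165, and it was 0.55 without CBDL_170. In the pairs of 1 norUDCA-fed and 1 CBDL array, the fed array was higher in 6 of 9. Against sham, the CBDL difference was 3.39 without sham_159 and 4.12 without CBDL_165, and the norUDCA-fed difference was 3.53 without sham_159.

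The spread of Havcr1 within a group also differed between the groups. The highest and lowest arrays were 3.02-fold apart in sham, 2.44-fold in CBDL and 1.28-fold in norUDCA-fed CBDL, and with 3 arrays a group this difference in spread was not tested. The sham mean lay near 5.20, below which the dimmest 33.3% of genes fell, and sham_159 lay under it. Signal above background is not shown there, so the fold against sham describes these signals and its true size was not tested.

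Among all genes of the same array, Havcr1 stood between the 16.8 and 44.1 percentiles in sham, between the 81.5 and 94.2 percentiles in CBDL and between the 86.3 and 89.6 percentiles in norUDCA-fed CBDL. By size of increase it ranked 6 among the 22180 genes in CBDL against sham. In norUDCA-fed CBDL against sham it ranked 2, behind Cyp4a14, a fatty acid hydroxylase, at 4.06. In norUDCA-fed CBDL against CBDL it ranked 5246.

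**Figure D1:**
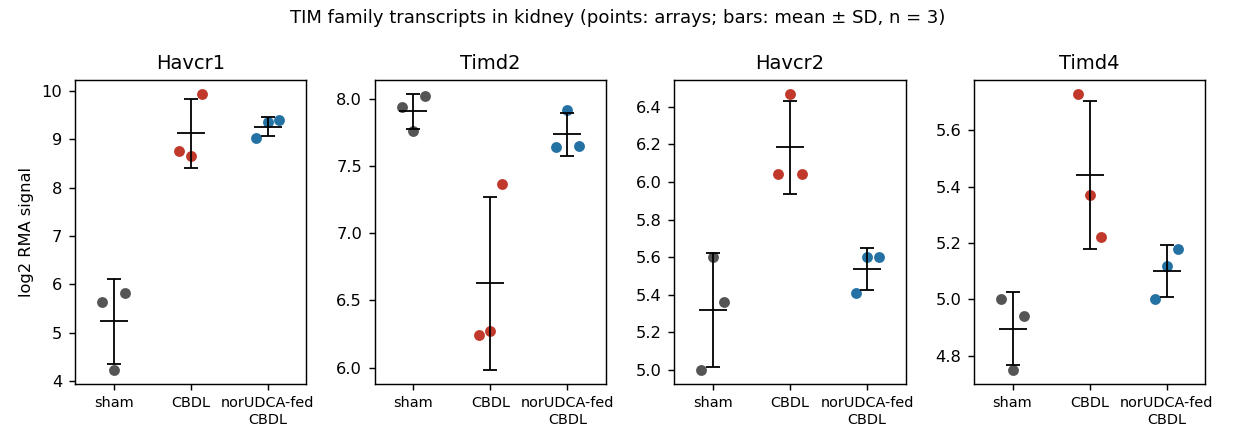
Log2 RMA signal (y axes, scaled separately for each gene) of the 4 TIM genes in the 3 groups (x axes), with a point for each array and bars for mean ± SD (n = 3). Havcr1 is high in both ligated groups, while Timd2 dips in CBDL from 7.91 to 6.62 and stands at 7.74 in norUDCA-fed CBDL.

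Of the 3 other TIM genes, 2 rose and 1 fell in CBDL against sham, by limma with Benjamini-Hochberg adjustment over all genes, the test behind every call here (adjusted p under 0.05, two-sided). Over all genes, 10.3% were called higher and 11.5% lower in that comparison. Timd2, whose protein takes up ferritin in the mouse, read 7.94, 7.76 and 8.02 in sham, 6.24, 6.27 and 7.37 in CBDL, and 7.64, 7.92 and 7.65 in norUDCA-fed CBDL. The CBDL values lay below all others, and CBDL_170, the CBDL array with the most Havcr1, also had the most Timd2. Timd2 fell by 1.28 after ligation (SE 0.26, adjusted p = 0.00637) and was higher by 1.11 in norUDCA-fed CBDL than in CBDL (SE 0.26, adjusted p = 0.0354). The second call ended without sham_158, sham_160, CBDL_164, CBDL_165 or any of the 3 norUDCA-fed arrays (adjusted p between 0.0547 and 0.137).

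Havcr2, which encodes the T cell and macrophage receptor TIM-3, read 5.00, 5.60 and 5.36 in sham, 6.04, 6.47 and 6.04 in CBDL and 5.41, 5.60 and 5.60 in norUDCA-fed CBDL. It rose by 0.86 after ligation (SE 0.17, adjusted p = 0.00552), and norUDCA-fed CBDL differed from CBDL by -0.64 (SE 0.17, adjusted p = 0.0558). That difference was called without sham_158 (adjusted p = 0.042) or sham_159 (adjusted p = 0.0408). Timd4, which encodes the phosphatidylserine receptor TIM-4 of macrophages, was higher by 0.55 (SE 0.14, adjusted p = 0.019), but not called without sham_159 (adjusted p = 0.0615) or CBDL_164 (adjusted p = 0.0559). Its values lay between 4.75 and 5.73, near the level of the dimmest 33.3% of genes. Against sham, none of the 3 was called in norUDCA-fed CBDL by limma, and none had an unadjusted p under 0.05.

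The 5 measured genes on each side of Havcr1 in the reference order (GRCm38.p6) were looked at next. Trim7, which encodes a tripartite motif protein, fell by 0.79 in CBDL against sham (SE 0.12, adjusted p = 0.00149). Of the 10 neighbours, Timd2, Timd4 and Trim7 were called in that comparison, where 21.8% of all genes were called in either direction. Timd2 alone was called between the ligated groups, where the share of all genes was 6.8%. None was called in norUDCA-fed CBDL against sham, where that share was 3.18%.

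The next comparison asks how other genes known from injured and regenerating tubules stood where Havcr1 stayed high. Of 27 measured genes of tubular injury and repair, 22 rose and 0 fell in CBDL against sham, with a median difference of 1.61 against -0.06 over all genes. Between the ligated groups, as norUDCA-fed CBDL against CBDL, 0 rose and 21 fell, with a median of -0.97 against 0 over all genes, of which 3.61% were called higher and 3.2% lower. Without adjustment, 0 members were higher and 24 lower at p under 0.05. The difference was below 0 for 26 of the 27 genes, as for 50.7% of all genes, and Tff3, a secreted trefoil peptide, was the exception at 0.23 (adjusted p = 0.593). These comparisons share the CBDL arrays, and this list, like the others, was chosen with earlier results of these data known.

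The count of members that fell was 9 without CBDL_164, 11 without CBDL_165, 8 without norUDCA_CBDL_172, 6 without norUDCA_CBDL_175 and 10 without norUDCA_CBDL_179. It was 0 when variances were not moderated, a setting in which 25 of all genes were called. Without CBDL_170 it was 21. Against sham, 13 members rose and 0 fell in norUDCA-fed CBDL (21 and 2 at an unadjusted p under 0.05), where 1.82% of all genes were called higher. This count was 8 without sham_160, 7 without norUDCA_CBDL_172 and 7 without norUDCA_CBDL_179, and 6 when variances were not moderated.

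Lcn2, the gene of the siderophore-binding protein NGAL that injured tubules secrete, read 7.48, 7.79 and 7.03 in sham, 11.92, 12.44 and 11.90 in CBDL and 11.19, 10.98 and 11.19 in norUDCA-fed CBDL. The 3 groups did not overlap. Lcn2 was lower by 0.97 on the log2 scale in norUDCA-fed CBDL than in CBDL (difference -0.97, SE 0.20, adjusted p = 0.0232), and the call ended without CBDL_164, CBDL_165 or any 1 of the norUDCA-fed arrays (adjusted p between 0.0594 and 0.0974). Unlike the Havcr1 values, no norUDCA-fed Lcn2 value reached the lowest CBDL value. Since Havcr1 was chosen for not being lower after norUDCA, this contrast is a description and was not tested. The 95% interval of the Havcr1 difference between the ligated groups reached down to -0.82.

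Timp1, an inhibitor of matrix metalloproteinases, read 5.00, 3.96 and 4.66 in sham, 8.69, 8.41 and 8.71 in CBDL and 7.42, 7.39 and 7.64 in norUDCA-fed CBDL. It differed by -1.12 between the ligated groups (SE 0.23, adjusted p = 0.02), and the call ended without CBDL_164 or any 1 of the norUDCA-fed arrays (adjusted p between 0.0526 and 0.0851). Krt20, a keratin of injured tubule and urothelium, differed by -0.95 (SE 0.17, adjusted p = 0.014), and the call ended without CBDL_164, norUDCA_CBDL_172 or norUDCA_CBDL_175 (adjusted p between 0.0509 and 0.0648). Vcam1, an adhesion molecule of endothelium and of tubules that repair poorly, differed by -0.78 (SE 0.16, adjusted p = 0.0192), and the call ended without CBDL_164 or any 1 of the norUDCA-fed arrays (adjusted p between 0.0546 and 0.0748).

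Calls between the ligated groups that held without any 1 array were those of Cd44, Sox4, Sox9, Dcdc2a, Krt18 and Atf3, among the members. Cd44, a hyaluronan receptor, read 7.96, 8.17 and 7.71 in CBDL and 6.67, 6.79 and 6.85 in norUDCA-fed CBDL, a difference of -1.17 (SE 0.13, adjusted p = 0.00655). Sox9, a transcription factor of regenerating tubule, read 8.70, 9.66 and 8.85 in CBDL and 7.71, 7.34 and 7.59 in norUDCA-fed CBDL, a difference of -1.52 (SE 0.22, adjusted p = 0.00815). For both genes the norUDCA-fed values lay below every CBDL value and above every sham value. The 6 members not called between the ligated groups were Krt7 at -0.55, Prom1 at -0.04, Tff3 at 0.23, Itgb6 at -0.32, Plin2 at -0.32 and Hmox1 at -0.82. Krt7 is a simple epithelial keratin and Prom1 a marker of tubular progenitor-like cells. These genes were named after their values were seen, as were Sox9, Dcdc2a and Krt18.

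**Figure D2:**
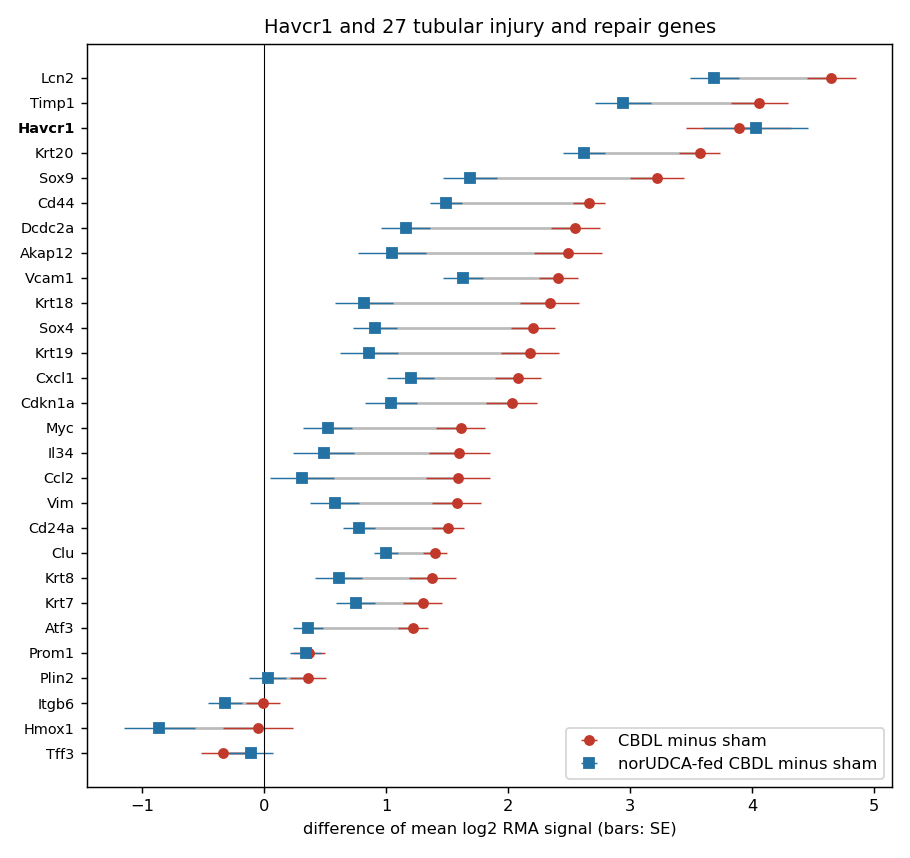
Difference of mean log2 RMA signal from sham (x axis, bars SE) for Havcr1 and 27 tubular injury and repair genes (y axis), with circles for CBDL and squares for norUDCA-fed CBDL, which share the sham arrays. The square lies left of the circle for 26 of the 27 listed genes, while for Havcr1 the square at 4.03 lies right of the circle at 3.89.

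KIM-1 is a product of the proximal tubule, so genes of that segment were set beside it. Of 9 measured genes of all proximal segments, 9 fell and 0 rose in CBDL against sham, with a median of -1.03, while 11.5% of all genes fell. Of 7 genes of the early segments S1 and S2, 6 fell, and of 7 genes of the late segment S3, 7 fell, with medians of -1.74 and -1.01. Leaving out 1 array gave 7 to 9 genes of all segments that fell, 5 to 7 of S1 and S2, and 7 of S3. No gene of these 3 lists was higher at an unadjusted p under 0.05 in limma. Lrp2, the endocytic receptor megalin, read 12.75, 12.77 and 12.83 in sham, 11.57, 11.12 and 12.07 in CBDL and 12.55, 12.61 and 12.54 in norUDCA-fed CBDL. The CBDL values lay below all others. Lrp2 fell by 1.20 after ligation (SE 0.19, adjusted p = 0.00168). Between the ligated groups it was higher by 0.98 (SE 0.19, adjusted p = 0.0181), which was not called without CBDL_164 or any 1 of the norUDCA-fed arrays (adjusted p between 0.0585 and 0.0761).

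Of the same lists, 7 of 9 genes of all segments rose, as did 4 of 7 S1 and S2 genes and 4 of 7 S3 genes, in norUDCA-fed CBDL against CBDL, and 0 fell, while 3.61% of all genes rose. Of all segments, 0 rose without CBDL_164 and 1 rose without any 1 of the norUDCA-fed arrays. Of S1 and S2, 2 rose without any 1 of the sham arrays, 1 without norUDCA_CBDL_172 and 0 without CBDL_164, norUDCA_CBDL_175 or norUDCA_CBDL_179. Of S3, 6 rose without CBDL_170, 2 without CBDL_165 and 1 without CBDL_164 or any 1 of the norUDCA-fed arrays. None of the 3 lists had a called gene when variances were not moderated. Slc5a1, the glucose transporter of S3, rose by 0.82 (SE 0.11, adjusted p = 0.00815), a call that held without any 1 array.

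In norUDCA-fed CBDL against sham, where 1.37% of all genes were called lower, 3 of 7 S3 genes and 0 of the genes of all segments and of S1 and S2 were called lower (4, 1 and 1 at an unadjusted p under 0.05). Cyp7b1, an oxysterol hydroxylase, read 10.31, 10.58 and 10.48 in sham, 7.22, 7.32 and 7.99 in CBDL and 8.16, 8.23 and 7.98 in norUDCA-fed CBDL. It fell by 2.34 in norUDCA-fed CBDL against sham (SE 0.19, adjusted p = 0.000614). Atp11a, a flippase that keeps phosphatidylserine on the inner side of the membrane, fell by 0.81 (SE 0.12, adjusted p = 0.00714) and differed by 0.14 between the ligated groups (adjusted p = 0.62). Slc22a7, an organic anion transporter, fell by 2.44 (adjusted p = 0.0188), and was not called without sham_159, sham_160, norUDCA_CBDL_172 or norUDCA_CBDL_179 (adjusted p between 0.0627 and 0.0937).

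Within the CBDL group, the arrays stood in the same order for Havcr1 and for the proximal list, and in the reverse order for the injury list. CBDL_170 had the most Havcr1 at 9.95, the least injury signal as a mean over the 27 genes at 9.03, and the most signal of the 9 genes of all proximal segments at 10.91. CBDL_165 had the least Havcr1 at 8.66, the most injury signal at 9.46 and the least proximal signal at 9.93. CBDL_164 lay between them, with Havcr1 at 8.77, injury signal at 9.06 and proximal signal at 10.47. With 3 arrays these orders were not tested.

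**Figure D3:**
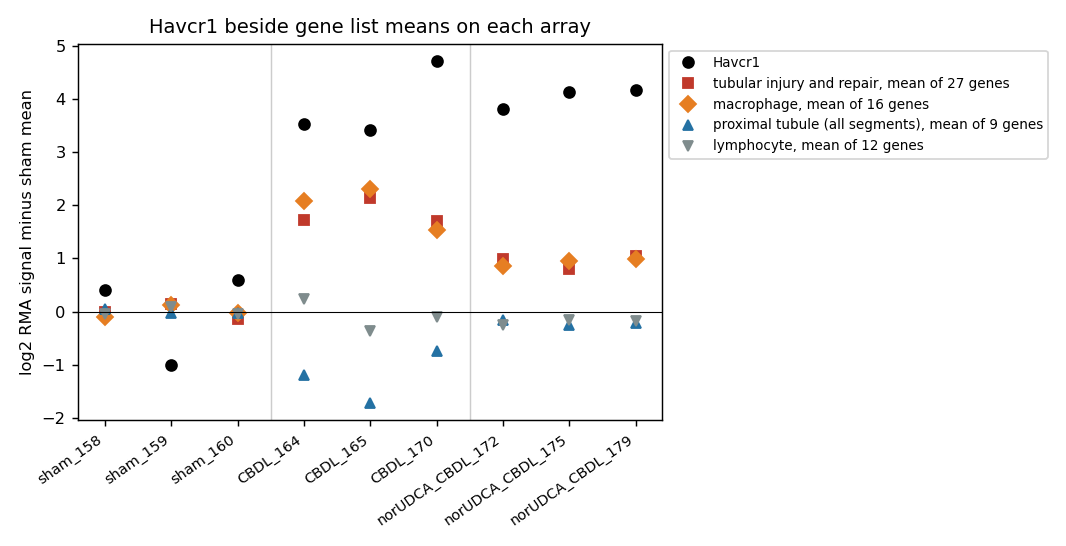
Log2 RMA signal minus the sham mean (y axis) on each of the 9 arrays (x axis) for Havcr1 and for the mean of 4 gene lists. Havcr1 lies between 3.42 and 4.71 on all 6 ligated arrays, while the injury mean lies between 1.70 and 2.13 on CBDL arrays and between 0.81 and 1.04 on norUDCA-fed arrays.

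Other cells that could contribute Havcr1 RNA, or that move with it, were measured through their markers. Lymphocytes carry TIM-1, and of 12 measured lymphocyte markers 0 rose and 1 fell in CBDL against sham (1 and 1 at an unadjusted p under 0.05), where 10.3% of all genes rose and 11.5% fell. Without CBDL_170, 2 rose. The marker that fell was Cd79a, a B cell receptor chain, at -0.72 (SE 0.13, adjusted p = 0.00291). The mean signal over the list lay between 5.37 and 5.51 in sham, 5.05 and 5.65 in CBDL and 5.17 and 5.27 in norUDCA-fed CBDL, so it overlapped between sham and CBDL. Between the ligated groups 0 were called (0 higher and 2 lower at an unadjusted p under 0.05), and 2 were lower without CBDL_170. Against sham, Cd79a was lower in norUDCA-fed CBDL at -0.58 (adjusted p = 0.0425), which was not called without any 1 of the other arrays than CBDL_165 and CBDL_170 (adjusted p between 0.0707 and 0.13). The B cell marker Ms4a1 lay between 3.82 and 4.49 on the 9 arrays, under the level of 5.20 that bounds the dimmest 33.3% of genes.

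Of 16 macrophage markers, 16 rose and 0 fell in CBDL against sham, and 0 rose and 14 fell in norUDCA-fed CBDL against CBDL (0 and 16 at an unadjusted p under 0.05). Over all genes, 10.3% rose in the first comparison and 3.2% fell in the second. Leaving out 1 array gave 14 to 16 that rose in the first comparison. Their mean signal lay between 6.71 and 6.93 in sham, 8.35 and 9.12 in CBDL and 7.67 and 7.80 in norUDCA-fed CBDL. The count of 14 that fell was 3 without CBDL_164, 7 without CBDL_165, 5 without norUDCA_CBDL_172, 2 without norUDCA_CBDL_175 and 7 without norUDCA_CBDL_179, and 0 when variances were not moderated. Against sham, 12 rose in norUDCA-fed CBDL (1.82% of all genes), and the count was 7 without sham_160 or norUDCA_CBDL_172, 6 without norUDCA_CBDL_175, 3 without norUDCA_CBDL_179 and 2 when variances were not moderated. Ctss, a lysosomal protease of macrophages, fell by 1.61 between the ligated groups (SE 0.19, adjusted p = 0.00655). Of 10 neutrophil markers, 4 rose in CBDL against sham, where 10.3% of all genes did (2 without sham_158 or sham_159, and 1 without sham_160 or CBDL_165), and 0 were called in the other comparisons. Without adjustment, 2 neutrophil markers were lower between the ligated groups and 2 higher in norUDCA-fed CBDL against sham. Limma called 2 neutrophil markers lower between the ligated groups without CBDL_170, and 1 higher against sham without CBDL_165. The part of these cells in the Havcr1 signal was not tested.

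Of 12 distal nephron markers, 2 rose and 4 fell in CBDL against sham, where 10.3% of all genes rose and 11.5% fell. Leaving out 1 array, 2 rose and 3 to 5 fell. Of the 12, 2 were called higher and 0 lower between the ligated groups (9 and 1 at an unadjusted p under 0.05), where 3.61% of all genes were higher. The call of Slc12a3, a salt transporter, ended without any 1 of the 9 arrays (adjusted p between 0.0521 and 0.145), and that of Aqp3, a water channel, without any 1 of the norUDCA-fed arrays (adjusted p between 0.063 and 0.106). Against sham, 2 were higher in norUDCA-fed CBDL (1.82% of all genes), and 0 without any 1 of the sham arrays, norUDCA_CBDL_172 or norUDCA_CBDL_179. The count was 1 without CBDL_164 or norUDCA_CBDL_175.

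STAT3 is known to drive transcription of Havcr1 in injured tubule, downstream of receptors of the interleukin-6 family. Of 17 measured genes of this pathway, 9 rose and 0 fell in CBDL against sham, with a median of 0.46 against -0.06 over all genes, of which 10.3% were called higher. Between the ligated groups, where 3.2% of all genes were called lower, 0 rose and 5 fell (0 and 8 at an unadjusted p under 0.05). The count of 5 was 2 without CBDL_164, 1 without norUDCA_CBDL_175 and 0 when variances were not moderated. Against sham, 4 rose in norUDCA-fed CBDL (1.82% of all genes), and 2 without sham_160, norUDCA_CBDL_172 or norUDCA_CBDL_179. Stat3 itself read 10.22, 10.22 and 10.15 in sham, 11.35, 11.18 and 11.32 in CBDL and 11.09, 10.89 and 11.16 in norUDCA-fed CBDL. All ligated arrays lay above all sham arrays, and the fed arrays lay just below the CBDL arrays. Stat3 rose by 1.09 after ligation (SE 0.10, adjusted p = 9.98e-05) and by 0.86 in norUDCA-fed CBDL against sham (SE 0.10, adjusted p = 0.00337), and the ligated groups differed by -0.23 (SE 0.10, adjusted p = 0.256).

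The 5 that fell between the ligated groups were Il6ra, Lif, Osmr, Clcf1 and Socs3. Clcf1, a cytokine of the interleukin-6 family, read 8.29, 8.76 and 8.23 in CBDL and 7.37, 7.14 and 7.60 in norUDCA-fed CBDL, and fell by 1.06 (SE 0.16, adjusted p = 0.00883). Its values on the fed arrays lay above the sham values, which were 6.43, 6.41 and 6.50. Osmr, the oncostatin M receptor, differed by -0.98 between the ligated groups (SE 0.16, adjusted p = 0.0115), and the call ended without CBDL_164 (adjusted p = 0.0518) or norUDCA_CBDL_175 (adjusted p = 0.0536). Chek1, a checkpoint kinase reported to phosphorylate STAT3, was between 5.23 and 5.60 on all 9 arrays and was not called.

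KIM-1 is 1 of several receptors for phosphatidylserine. Of 22 such receptors and bridging proteins, 12 rose and 3 fell in CBDL against sham, with a median of 0.56, while 10.3% of all genes rose and 11.5% fell. Between the ligated groups, 0 rose and 7 fell (0 and 12 at an unadjusted p under 0.05), with a median of -0.31, while 3.2% of all genes fell. The count of 7 became 2 without CBDL_164, 3 without CBDL_165, 3 without norUDCA_CBDL_172 and 2 without norUDCA_CBDL_175, and 0 when variances were not moderated. Lrp1, an endocytic receptor that takes up apoptotic cells, read 8.64, 8.77 and 8.57 in sham, 10.39, 10.41 and 10.15 in CBDL and 9.37, 9.14 and 9.37 in norUDCA-fed CBDL. Its 3 groups did not overlap, and it fell by 1.02 between the ligated groups (SE 0.11, adjusted p = 0.00655).

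Thbs1, thrombospondin 1, which bridges dying cells to phagocytes, rose by 2.36 after ligation and fell by 1.51 between the ligated groups (SE 0.18, adjusted p = 0.00655). Axl, a receptor tyrosine kinase for phosphatidylserine bridged by Gas6, rose by 1.61 after ligation (SE 0.13, adjusted p = 4.61e-05). Its bridging protein gene Gas6 differed by 0.12 (adjusted p = 0.478). Pros1, the gene of the bridging protein S, rose by 1.76 (SE 0.11, adjusted p = 2.37e-05). Mertk, the related receptor of macrophages, differed by 0 to 2 decimals. Against sham, 4 of the 22 rose in norUDCA-fed CBDL (1.82% of all genes), and 2 without sham_158, sham_160, norUDCA_CBDL_172 or norUDCA_CBDL_179. Havcr1, by comparison, had a larger difference from sham in both ligated groups than any of the 22 listed genes, whose highest values were 2.36 and 1.15. Since Havcr1 was chosen for its high signal after ligation and was dim in sham, this order is a description.

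Of 17 genes of engulfment and LC3-associated phagocytosis, the route by which KIM-1 cargo is degraded, 3 rose and 0 fell in CBDL against sham (3 and 1 at an unadjusted p under 0.05), near the 21.8% of all genes called in either direction. The 3 were Elmo1, an activator of Rac at 0.63 (adjusted p = 0.00931), Gulp1, an engulfment adaptor at 0.80 (adjusted p = 0.00549), and Abca1, a lipid exporter at 1.66 (adjusted p = 0.00953). The list median of 0.08 stood against -0.06 over all genes, and Map1lc3b, Rab7 and Lamp1 differed by 0.19, -0.11 and -0.04. In the other comparisons limma called 0 of 17 (0 higher and 3 lower between the ligated groups, 2 higher and 0 lower against sham, at an unadjusted p under 0.05).

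Of 6 measured genes that shed KIM-1 or control its shedding, 3 rose and 2 fell in CBDL against sham, where 21.8% of all genes were called in either direction. Without any 1 of sham_158, sham_160, CBDL_164, CBDL_165 or the norUDCA-fed arrays 1 rose and 1 fell, without CBDL_170 2 rose and 2 fell, and without sham_159 4 rose and 1 fell. Rhbdf2, which brings the sheddase ADAM17 to the cell surface, rose by 0.88 (SE 0.12, adjusted p = 0.000606). Adam17 differed by 0.25 (adjusted p = 0.112). Adam10 was at 0.39 (adjusted p = 0.0424), a call that ended without any 1 array except sham_159 (adjusted p between 0.0519 and 0.134). Timp3, an inhibitor of ADAM proteases, fell by 0.64 (adjusted p = 0.00856). Rhbdf2 alone was called between the ligated groups, at -0.49 (adjusted p = 0.0386), and the call ended without any 1 array other than sham_159 and CBDL_170 (adjusted p between 0.0551 and 0.129).

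Of 8 measured binding and signalling partners of KIM-1, 4 rose and 0 fell in CBDL against sham, where 10.3% of all genes rose, and the count was 2 without CBDL_164. Selp, the endothelial adhesion molecule P-selectin, which binds TIM-1, rose by 1.47 (SE 0.15, adjusted p = 0.000123). Selp alone was called between the ligated groups (3.2% of all genes were lower), at -0.72 (adjusted p = 0.02), and not without CBDL_164, CBDL_165, norUDCA_CBDL_175 or norUDCA_CBDL_179 (adjusted p between 0.0707 and 0.0851). Cd5l, a macrophage protein that coats debris for uptake through KIM-1, read between 4.42 and 4.67 on 8 arrays and 5.43 on CBDL_165, and was not called.

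The genes whose pattern over the 9 arrays was most like that of Havcr1 were found by the root mean square of the difference between their deviations from their own sham mean. The 10 nearest were Timp1 at 0.74, Lcn2 at 0.88, Cyp4a14 at 0.89, Serpina10 at 1.01, Krt20 at 1.04, Cfi at 1.08, Gpc3 at 1.18, Serpina3n at 1.28, Fgb at 1.38 and Aldh1a2 at 1.42, in log2 units. These are genes with large rises, so the list is mostly one of size. When each gene was divided by its own range over the arrays, which leaves the shape alone, only Cfi of these 10 was still among the 10 nearest, at rank 9.

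Cfi, complement factor I, which cuts activated complement proteins, read 5.78, 5.81 and 5.62 in sham, 8.26, 8.34 and 9.22 in CBDL and 8.62, 8.17 and 8.56 in norUDCA-fed CBDL. As with Havcr1, CBDL_170 was the highest array and the fed values lay at the level of the CBDL values, with a difference of -0.15 (SE 0.23) between the ligated groups. Fgb, the fibrinogen beta chain, had wide groups, with 6.38, 8.30 and 9.21 in CBDL and 7.05, 9.21 and 8.27 in norUDCA-fed CBDL. Cyp4a14 read 8.77, 8.77 and 8.95 in CBDL and 10.21, 9.53 and 10.41 in norUDCA-fed CBDL, so it stood higher, by 1.22 (SE 0.22), where Havcr1 was level. The other 7 stood lower in norUDCA-fed CBDL than in CBDL, by differences between -2.04 for Serpina3n and -0.84 for Gpc3. The 10 were chosen for their likeness, which is given as a description.

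**Figure D4:**
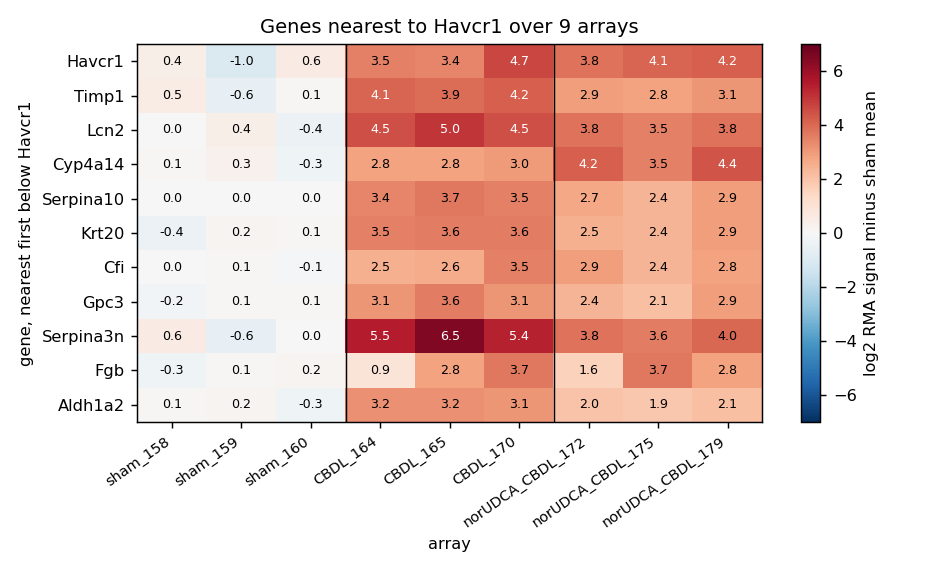
Log2 RMA signal minus the gene's own sham mean (colour and printed value) for Havcr1 and the 10 genes nearest to it (y axis) on each of the 9 arrays (x axis). Havcr1 and Cfi keep their level in the norUDCA-fed arrays, Cyp4a14 is higher there, and Timp1, Lcn2, Krt20 and Serpina3n are lower than in CBDL.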

How the data were processed

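The authors deposited log2 signals per array row, and the submitters' processing notes name RMA and Partek 6.6. Per the labels' protocols, TRIzol was used for the RNA and an Affymetrix WT PLUS kit for labelling. Build and filters are not given in the sources used here, and no label names a batch. Of 41345 rows, 23521 had 1 gene symbol, 1814 several and 16010 none. Rows with 1 symbol were used, the brightest per gene over the 9 arrays, which gave 22180 genes. The reference gene table held 21994 of their identifiers.

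Differences came from R 4.3.3 and limma 3.58.1, fitted to all 9 arrays with a mean for each group, 6 residual and 3.77 prior degrees of freedom and Benjamini-Hochberg adjustment over all genes. All genes were kept, dim ones too. The fit was tested on simulated data. Precision is limited by the number of arrays (median SE of a difference 0.14). Named genes were the TIM genes, Lcn2, Krt20, Vcam1, Timp1, per list the members with the lowest p (4, 3 and 2 in the 3 comparisons), the 10 nearest genes and 5 neighbours on each side. Other genes were named after their values were seen. The gene and the lists were chosen with earlier results of these data known. Some list genes are not reported here. Alternatives changed the variance prior, weights, moderation, arrays in the fit, dim genes, rows, scaling and single arrays.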

Additional observations from a re-analysis of the deposited data

How the results depend on the processing

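The differences of Havcr1 moved by less than the pooled SD of 0.66 under quantile normalization, subtraction of each array's median and leaving out any 1 array, and its row was the same under the mean of rows. Calls in CBDL against sham stayed within 1.5 times their count in total, in each direction and for the listed genes. In norUDCA-fed CBDL against CBDL, unmoderated variances called 25 genes (10 higher and 15 lower) and 0 listed genes, and a fit of the 6 arrays compared called 912 (404 higher) and 44 listed genes. In place of 1509 genes (800 higher and 709 lower) and 67 listed genes, leaving out 1 array gave 278 to 2043 genes, 136 to 1152 higher, 142 to 891 lower and 13 to 80 listed genes. In norUDCA-fed CBDL against sham, in place of 706 genes (403 higher and 303 lower) and 40 listed genes, array weights called 1638 (939 and 699) and 62, and unmoderated variances 169 (108 and 61) and 13. Leaving out the dimmest 33.3% of genes called 458 lower, and leaving out 1 array gave 156 to 822 genes, 103 to 458 higher, 53 to 364 lower and 16 to 48 listed genes. The cause was not tested, beyond the fewer arrays of these fits. Of the 10 genes nearest to Havcr1, 1 was kept when each gene was divided by its range, and 8 to 10 without 1 array. No paired analysis was possible because the groups share no replicate numbers. Signal over background could not be measured, which limits dim genes in sham, among them Havcr1, Krt20, Timp1, Timd4, Havcr2, Selp and Cd44.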
